A study of Mus musculus with 30 samples.

Results

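RNA of the retinal pigment epithelium (RPE) was compared directly between *Mertk*-/-V2 and *Mertk*-/-V3 mice, which carry 2 different deletions in *Mertk*, at postnatal day 25 (P25). The comparison took in all 6 RPE libraries that carry these genotypes in their labels, 3 *Mertk*-/-V2 and 3 *Mertk*-/-V3, out of 30 libraries in the series. The other 12 RPE libraries (6 B6 WT and 6 *Mertk*-/-V1) stayed in the model to estimate the spread, and 3 bone marrow-derived macrophage (BMDM) libraries of each line gave a second tissue. BMDMs were grown from marrow of adult mice for 7 days in L929-conditioned medium, while the RPE, freed from the posterior eyecup, was lysed without culture.

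The *Mertk*-/-V2 line carries a germline excision of exon 18, made by crossing floxed mice to a tamoxifen-inducible Cre that is expressed from *Rosa26* and was then bred out. The *Mertk*-/-V3 line carries a CRISPR/Cas9 deletion of exons 3 and 4. Both are germline alleles, so every cell type is mutant, and both trace back to embryos of the C57BL/6NJ substrain, of which the study's genotyping found a larger share in the genome of *Mertk*-/-V3 than of *Mertk*-/-V2, although the labels give C57BL/6J as the strain of every sample, B6 WT included. Substrain variants carried along with either allele therefore cannot be told apart from effects of the allele. *Mertk*-/-V1 is an older knockout line made in 129P2/OlaHsd-derived embryonic stem cells. Its libraries are used here to estimate the spread and as a reference level. Together with B6 WT they also give the difference between replicate sets and the library score described below.

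MERTK is a receptor tyrosine kinase of the TAM family (TYRO3, AXL, MERTK). In the retina it sits on the apical face of the RPE, where, bridged by GAS6 or protein S to phosphatidylserine, it drives ingestion of the outer segment tips that photoreceptors shed every day. In macrophages the same receptor takes up dying cells, and TAM signalling is known to dampen innate immune responses, the type I interferon response among them. Type I and type III (lambda) interferons act through different receptors and induce largely shared genes, many of which carry a GAAA-repeat element in their promoters.

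The exons that distinguish the alleles are shown because the gene-level count of *Mertk* has to be read against them. They are printed on the plus strand of GRCm38 from the GENCODE transcript Mertk-201, which has 19 exons and 4302 bases, with the exon in capitals and 15 neighbouring transcript bases in lower case on the side that joins the retained transcript. The study's exon numbers were taken to be those of this transcript. Exon 18 lies at chr2:128794442-128794578, exon 3 at chr2:128736563-128736663 and exon 4 at chr2:128738196-128738369.
Mertk exon 18: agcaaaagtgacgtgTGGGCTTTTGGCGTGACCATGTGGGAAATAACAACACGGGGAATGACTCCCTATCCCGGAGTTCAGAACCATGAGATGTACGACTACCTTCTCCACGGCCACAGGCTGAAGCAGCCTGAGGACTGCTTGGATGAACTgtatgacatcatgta
Mertk exon 3: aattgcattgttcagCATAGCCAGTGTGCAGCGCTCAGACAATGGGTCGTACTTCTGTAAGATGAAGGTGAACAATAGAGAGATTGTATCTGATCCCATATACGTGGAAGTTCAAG
Mertk exon 4: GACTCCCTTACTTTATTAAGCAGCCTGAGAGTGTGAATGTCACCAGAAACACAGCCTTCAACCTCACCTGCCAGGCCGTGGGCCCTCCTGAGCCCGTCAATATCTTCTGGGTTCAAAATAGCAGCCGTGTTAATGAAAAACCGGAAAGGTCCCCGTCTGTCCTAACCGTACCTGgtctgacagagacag
Exon 18 has 137 bases, and exons 3 and 4 together have 275, and either length leaves a remainder of 2 when divided by 3, so either deletion shifts the reading frame.

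*Mertk* itself (chr2:128698956-128802894) separated the lines. *Mertk*-/-V2 RPE had 5311, 3811 and 3565 normalized counts (reads divided by the authors' size factor for that library) and *Mertk*-/-V3 RPE had 444, 1005 and 1106. The 6 B6 WT libraries ranged from 2638 to 3924, so that all 3 *Mertk*-/-V3 libraries lay below B6 WT and the *Mertk*-/-V2 libraries did not. The difference on the log2(value + 1) scale, coded V2 minus V3 here and throughout, was 2.40 (SE 0.29, 95% CI 1.77 to 3.02, adjusted p = 0.00199 from limma). Since reads on all 19 exons enter the count, the values do not check the loss of exon 18 from *Mertk*-/-V2 transcripts. They are RNA values, and the study detected no MERTK protein in RPE of either line by Western blot of adult mice. BMDMs gave 3589, 3532 and 3579 normalized counts in *Mertk*-/-V2 and 651, 685 and 723 in *Mertk*-/-V3, a log2 difference of 2.38 (SE 0.06, adjusted p = 1.6e-11 from limma).

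For the other 2 TAM receptors no difference was detected. *Tyro3* was counted at 3851, 2628 and 2783 in *Mertk*-/-V2 RPE and at 2145, 2983 and 3577 in *Mertk*-/-V3 RPE (log2 difference 0.10, 95% CI -0.31 to 0.51, adjusted p = 0.83 from limma). *Axl* was counted at 1703, 1890 and 2070 against 1508, 1688 and 2119 (log2 difference 0.10, 95% CI -0.20 to 0.40, adjusted p = 0.757 from limma). Libraries of the lines overlapped for both genes, and the sign of the *Tyro3* difference turned without *Mertk*-/-V2 replicate 1 (-0.070) or *Mertk*-/-V3 replicate 1 (-0.10), that of *Axl* without *Mertk*-/-V3 replicate 1 (-0.0076). Among the 8 TAM receptors and ligands listed, *Mertk* was the one gene that passed the test (3.54% of all genes tested in either direction).

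Across the RPE, 79 of 18832 genes tested (0.419%) were differentially expressed genes (DEGs), that is, with a Benjamini-Hochberg adjusted p under 0.05 and a log2 difference beyond 1.25 in either direction. There were 32 DEGs higher in *Mertk*-/-V2 (0.17%) and 47 higher in *Mertk*-/-V3 (0.25%). Without the fold threshold 667 genes had an adjusted p under 0.05 (3.54%), 501 of them higher in *Mertk*-/-V2 (2.66%) and 166 higher in *Mertk*-/-V3 (0.881%). The 2 directions differed in their shares of protein-coding genes and pseudogenes. Of the 32 DEGs higher in *Mertk*-/-V2, 28 were protein coding and 1 was a pseudogene, whereas of the 47 higher in *Mertk*-/-V3, 9 were protein coding and 25 were pseudogenes. A near-identical transcribed copy elsewhere, or an overlapping exon of another gene, was found for 14 of the 32 and 26 of the 47, and how the reads of such genes were divided is uncertain. Neither the gene types nor the copies and overlaps were counted over all genes tested, so neither direction is set against that background.

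The number of DEGs hung on single libraries and on how the spread was estimated. Without *Mertk*-/-V2 replicate 1 there were 43 DEGs, without *Mertk*-/-V2 replicate 3 there were 22, without *Mertk*-/-V3 replicate 1 there were 49, without *Mertk*-/-V3 replicate 2 there were 23, and without *Mertk*-/-V3 replicate 3 there were 129. A fit of the 6 libraries alone left 5 of the 79 (*Gm15446*, *1010001B22Rik*, *Wdfy1*, *Ifnl2* and *Ifnl3*), and array quality weights left 7 (*Gm15446*, *1010001B22Rik*, *Wdfy1*, *Mertk*, *Lrmda*, *Gm47283* and *Gm10222*). With 1 mean per genotype 10 remained, namely *Mertk*, *Lrmda*, *Gm15446*, *1010001B22Rik*, *Wdfy1*, *Gm47283*, *Ifnl2*, *Ifnl3*, *Apol9a* and *Ifi27l2a*. Every DEG described below other than those named for a fit lost its call in that fit.

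Depth also moved with the lines, and in B6 WT and *Mertk*-/-V1 it moved with the replicate number. *Mertk*-/-V2 RPE libraries held 29522487 to 33169749 reads on genes and *Mertk*-/-V3 libraries 16476097 to 21573517. In the B6 WT libraries, replicates 1 to 3 had 23417838 to 30196674 and replicates 4 to 6 had 14137666 to 18266704. In the *Mertk*-/-V1 libraries, replicates 1 to 3 had 27958711 to 34124049 and replicates 4 to 6 had 19791803 to 20779930. The 2 sets of replicates differed from each other in many genes. With B6 WT and *Mertk*-/-V1 combined, 1718 genes (9.12%) passed both thresholds between replicates 1 to 3 and replicates 4 to 6, and 7896 (41.9%) had an adjusted p under 0.05. This set difference shares no library with the V2 minus V3 difference, and it is given beside the results that follow, as replicates 1 to 3 minus 4 to 6. Of the 79 DEGs, 77 had a set difference of the same sign, against 74.7% of all genes tested. For 53 of them it had an adjusted p under 0.05 in the same direction, a share that over all genes tested was counted only without regard to direction (41.9%). The set difference was opposite in sign, or under 0.25 times the V2 minus V3 difference, for 19 DEGs, 11 of them higher in *Mertk*-/-V2. A gene with a large V2 minus V3 difference meets this rule more easily, and the share of all genes tested that meet it was not counted. Labels number the *Mertk*-/-V2 and the *Mertk*-/-V3 libraries 1 to 3 alike and do not say with which set they were made. The part of the set or of depth in these differences was not tested.

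**Figure D1:**
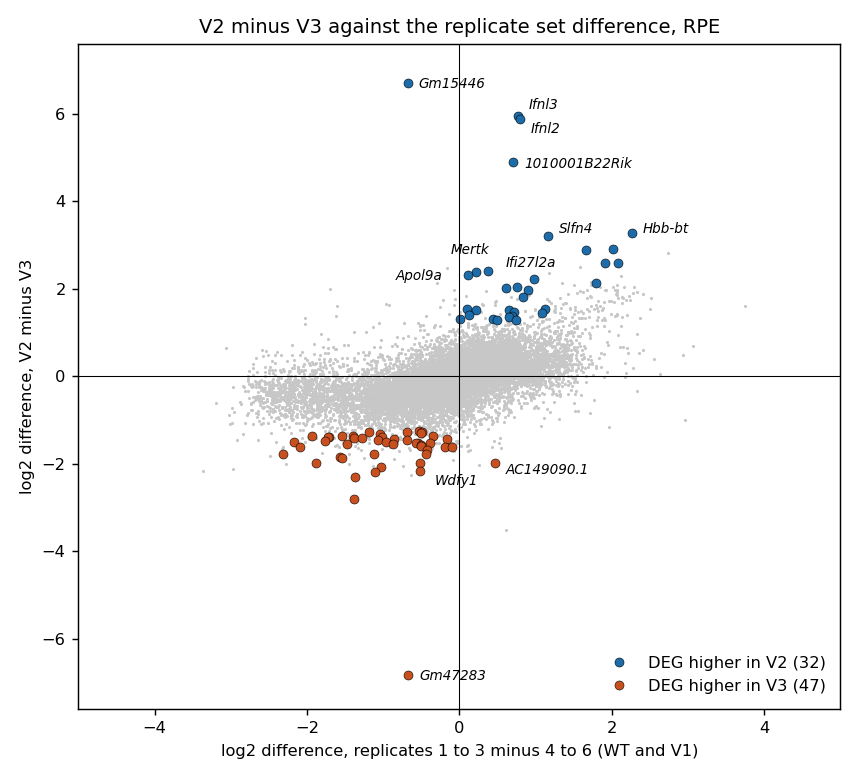
Each grey point is 1 of the 18832 genes tested in RPE, with the log2 difference V2 minus V3 on the y axis and that of replicates 1 to 3 minus 4 to 6 of B6 WT and *Mertk*-/-V1 on the x axis. The 79 DEGs are coloured, and across all genes the 2 differences had a Pearson r of 0.54, while *Mertk*, *Wdfy1*, *Gm15446* and *Gm47283* lie far from 0 on the y axis and within 1 of 0 on the x axis.

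A small group of genes separated the lines in both tissues. In BMDMs 33 of 13420 genes tested (0.246%) were DEGs between *Mertk*-/-V2 and *Mertk*-/-V3, and 424 (3.16%) had an adjusted p under 0.05. Of the 79 RPE DEGs, 46 were tested in BMDMs, and 5 of them were DEGs there in the same direction: *Mertk*, *Gm15446*, *Wdfy1*, *Lrmda* and *Gm47283*. The tables of the tissues were normalized separately, so only differences within a tissue were tested.

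*Gm15446*, a predicted gene of chromosome 5 (chr5:109923400-109943936), was almost unread in *Mertk*-/-V3. *Mertk*-/-V2 RPE had 296, 291 and 256 normalized counts, from 367, 343 and 298 reads, and *Mertk*-/-V3 RPE had 1.12, 1.25 and 3.08, from 1, 1 and 2 reads. B6 WT ranged from 239 to 421, the level of *Mertk*-/-V2. The level in *Mertk*-/-V2 was 165-fold that in *Mertk*-/-V3 (95% counting interval 64.3 to 607), and the log2 difference was 6.71 (SE 0.27, adjusted p = 3.17e-09 from limma), with a set difference of -0.68. In BMDMs the values were 53.4, 42.4 and 40.8 against 14.2, 1.07 and 2.41 (log2 difference 3.28, adjusted p = 0.0042 from limma). The transcript is 97.4% identical over 1765 bases to *Zfp932*, a zinc finger gene for which no RPE difference was detected (log2 difference 0.07, adjusted p = 0.815 from limma), so some reads may have been counted under either gene.

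Next to it on chromosome 5, the long noncoding RNA *1010001B22Rik* (chr5:109995511-109996398) had 29.8, 27.2 and 29.2 normalized counts in *Mertk*-/-V2 RPE and no read in any of the 3 *Mertk*-/-V3 libraries. B6 WT ranged from 7.86 to 36.9. With a floor of 3 reads per library the gene was at least 7.36-fold higher in *Mertk*-/-V2 (adjusted p = 1.07e-05 from limma). In BMDMs it was near 0 in both lines and was not tested.

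*Wdfy1*, which encodes an endosomal FYVE-domain protein, went the other way. It was counted at 384, 460 and 351 in *Mertk*-/-V2 RPE and at 1776, 1637 and 1880 in *Mertk*-/-V3 RPE, with B6 WT between 307 and 448. The groups did not overlap, *Mertk*-/-V2 was at the level of B6 WT, and the log2 difference was -2.15 (SE 0.13, 95% CI -2.42 to -1.88, adjusted p = 3.71e-07 from limma) beside a set difference of -0.52. BMDMs had 263, 200 and 245 against 1146, 1240 and 1151 (log2 difference -2.32, SE 0.10, adjusted p = 8.6e-09 from limma). The gene (chr1:79702262-79776143) overlaps *Mrpl44* on the opposite strand, and whether reads were counted by strand is not given in the sources used here.

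*Lrmda*, a melanocyte differentiation gene linked to pigmentation (chr14:22019712-23056085), was lower in *Mertk*-/-V3. RPE values were 338, 257 and 233 in *Mertk*-/-V2 against 46.9, 72.3 and 84.8 in *Mertk*-/-V3, and B6 WT ranged from 169 to 312. The log2 difference was 2.03 (SE 0.26, adjusted p = 0.00251 from limma), with a set difference of 0.61. BMDMs had 152, 168 and 176 against 27.3, 16.0 and 25.7 (log2 difference 2.82, SE 0.18, adjusted p = 7.9e-07 from limma). In both tissues every *Mertk*-/-V3 library lay below every *Mertk*-/-V2 library.

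*Gm47283*, a predicted gene annotated on the Y chromosome (chrY:90784738-90816464), was the mirror image, since it was almost unread in *Mertk*-/-V2. *Mertk*-/-V2 RPE had 2.42, 0 and 0 normalized counts (3, 0 and 0 reads), *Mertk*-/-V3 RPE had 80.3, 273 and 222, and B6 WT had 268 to 579. *Mertk*-/-V3 was 221-fold above *Mertk*-/-V2 (95% counting interval 75.2 to 1077), with a log2 difference of -6.82 (SE 0.53, adjusted p = 1.07e-05 from limma) and a set difference of -0.67. BMDMs, which showed a female pattern of sex-linked genes while all RPE libraries showed a male pattern, had 1.21, 3.03 and 3.80 against 142, 75.7 and 265 (log2 difference -5.35, SE 0.38, adjusted p = 3.3e-06 from limma). The transcript matches *Gm21887* of the X chromosome at 100% over 529 bases, and reads of the 2 copies may have been counted under either name. In the *Mertk*-/-V3 BMDM libraries, where *Gm47283* was read, the Y-linked marker genes summed to 0, 0 and 0.803 normalized counts. The name *Gm47283* therefore does not place those reads on the Y chromosome, and the copy they come from was not tested. A neighbouring Y-linked gene, *Gm21860*, had 4.83, 0 and 1.72 against 15.6, 21.2 and 13.9 in RPE (log2 difference -2.81, SE 0.59, adjusted p = 0.0238 from limma) and also has near-identical copies. Its call was lost without *Mertk*-/-V2 replicate 2 or 3 or *Mertk*-/-V3 replicate 1 or 2 (adjusted p up to 0.127), whereas *Mertk*, *Gm15446*, *1010001B22Rik*, *Wdfy1*, *Lrmda* and *Gm47283* passed without any 1 of the 6 libraries. For *1010001B22Rik*, with no read in *Mertk*-/-V3, leaving out a *Mertk*-/-V3 library could not change the log2 difference.

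The comparison of each line with B6 WT in the same fit, added after the first results were seen, shares its libraries with the direct comparison and is given side by side. For *Gm15446* it was -0.05 in *Mertk*-/-V2 (limma adjusted p = 0.976) and -6.76 in *Mertk*-/-V3 (adjusted p = 3.58e-10). For *Wdfy1* the values were 0.13 (adjusted p = 0.752) and 2.29 (adjusted p = 2.04e-08), again with the change in *Mertk*-/-V3. *Lrmda* was at 0.20 (adjusted p = 0.853) and -1.83 (adjusted p = 0.00135), and *Gm47283* at -7.90 (adjusted p = 6.22e-07) and -1.08 (adjusted p = 0.203). Across all genes tested 18 (0.0956%) were DEGs of *Mertk*-/-V2 against B6 WT, 15 higher (0.0797%) and 3 lower (0.0159%), and 15 (0.0797%) of *Mertk*-/-V3, 9 higher (0.0478%) and 6 lower (0.0319%).

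**Figure D2:**
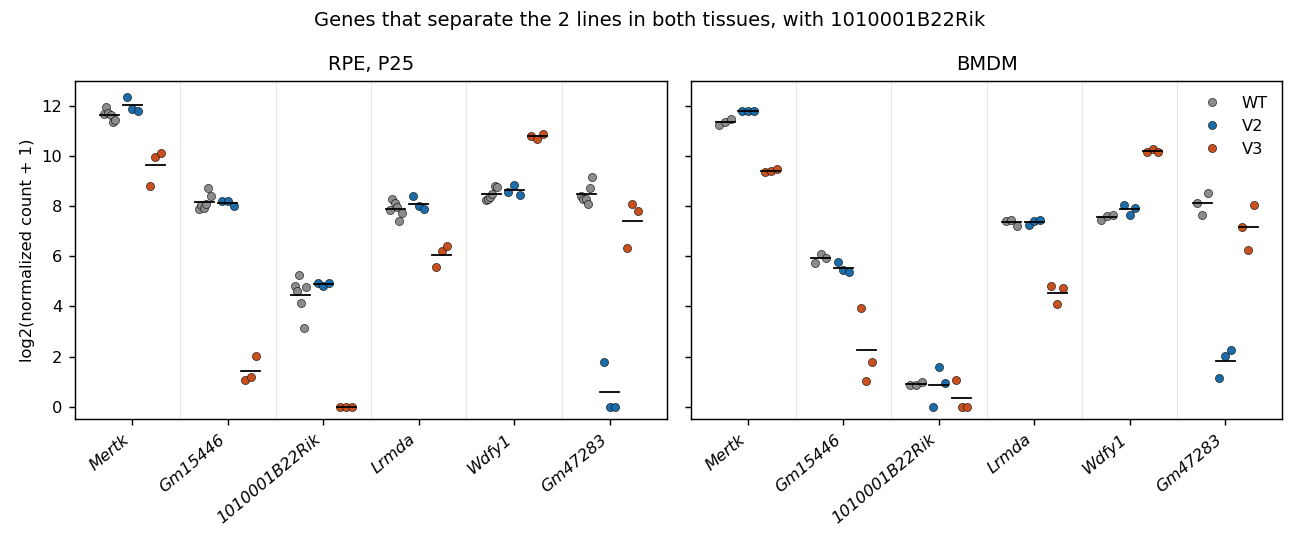
Log2(normalized count + 1) on the y axis for 6 genes that separate the lines, in RPE (left) and BMDMs (right), with 1 point per library of B6 WT (grey), *Mertk*-/-V2 (blue) and *Mertk*-/-V3 (orange) and a bar at each group's mean. In RPE *Gm15446* and *1010001B22Rik* sit near 0 or at 0 in *Mertk*-/-V3, *Gm47283* does in *Mertk*-/-V2, and *Wdfy1* lies at 1637 to 1880 normalized counts in *Mertk*-/-V3, above every *Mertk*-/-V2 library.

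**Figure D3:**
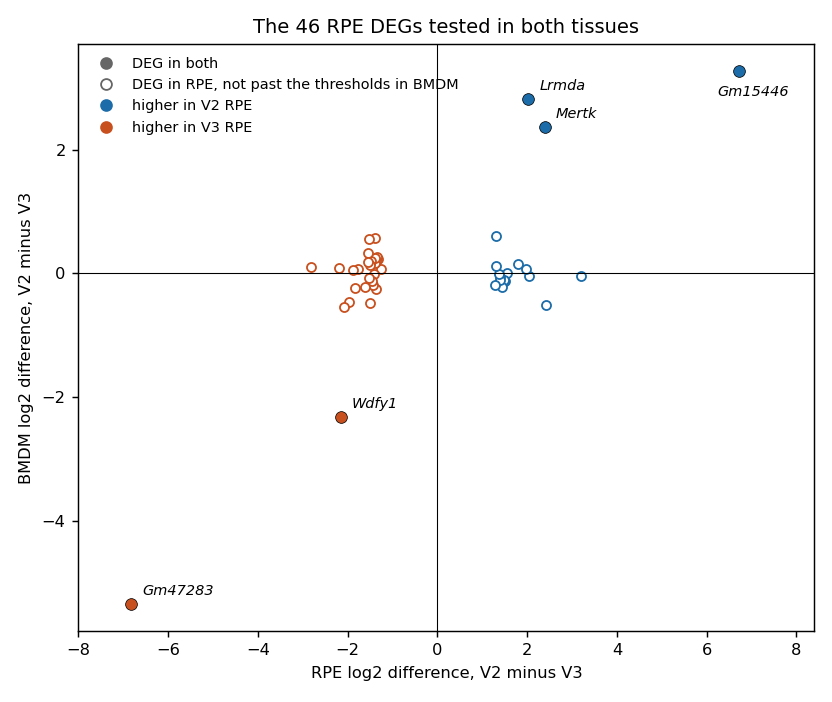
Log2 difference V2 minus V3 in BMDMs (y axis) against that in RPE (x axis) for the RPE DEGs that were tested in both tissues. The 5 genes that are DEGs in the same direction in both (*Mertk*, *Gm15446* and *Lrmda* higher in *Mertk*-/-V2, *Wdfy1* and *Gm47283* higher in *Mertk*-/-V3) are filled, and the open points are RPE DEGs that did not pass both thresholds in BMDMs.

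Some interferon genes were among those higher in *Mertk*-/-V2 RPE. The ligands themselves were read in *Mertk*-/-V2. *Ifnl2*, a type III interferon that acts on epithelia (chr7:28508836-28510455), had 95.1, 29.7 and 69.7 normalized counts in *Mertk*-/-V2 RPE and none in the 3 *Mertk*-/-V3 and the 6 B6 WT libraries. *Ifnl3* (chr7:28522836-28524322) had 92.7, 50.1 and 49.0, and again no read in *Mertk*-/-V3 or B6 WT. With a floor of 3 reads per library they were at least 16.6-fold and at least 16.4-fold higher in *Mertk*-/-V2 than in *Mertk*-/-V3. The limma test gave adjusted p = 0.00156 for *Ifnl2* and adjusted p = 0.00539 for *Ifnl3*. Neither passed with array quality weights (adjusted p = 0.485 and 0.653) or in the count models (0.0615 and 0.0998 in edgeR, 0.278 and 0.359 in DESeq2). The transcripts of the pair are 97.1% identical over 582 bases, so that a read can belong to either gene, and no BMDM library held a read of them. Replicate 1 of the *Mertk*-/-V1 RPE also held reads of both (12.8 and 23.3).

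Of 29 interferon effector genes tested, 6 were DEGs, all higher in *Mertk*-/-V2 (0.17% of all genes tested), and 9 had an adjusted p under 0.05 in that direction (2.66%). The nominal value was higher in *Mertk*-/-V2 for 27 of the 29, and 17 did not overlap between the lines, against 12.7% of all genes tested. The median log2 difference of the list was 0.61, beside 0.0136 for all genes tested and a set difference of 0.31 for the list. The summed level of the list was 23480, 23323 and 28108 in *Mertk*-/-V2 and 15797, 19500 and 18445 in *Mertk*-/-V3, with B6 WT from 14166 to 19855. Every *Mertk*-/-V2 library was above every *Mertk*-/-V3 and B6 WT library, but the 6 *Mertk*-/-V1 libraries ranged from 19427 to 34946 (median 25921) and overlapped *Mertk*-/-V2. In BMDMs none of the 29 passed in limma, edgeR or DESeq2 (0 with an unadjusted p under 0.05 in each), and the median log2 difference was -0.04. That median moved to 0.30 without *Mertk*-/-V2 replicate 3 (5 genes at an unadjusted p under 0.05 in limma). Without *Mertk*-/-V2 replicate 1 it moved to -0.27 (2 genes, lowest adjusted p = 0.0508 from limma).

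*Isg15*, a ubiquitin-like modifier, led the list. It was counted at 531, 398 and 668 in *Mertk*-/-V2 RPE, at 122, 128 and 126 in *Mertk*-/-V3 RPE and at 107 to 177 in B6 WT. The lines did not overlap, and the log2 difference was 2.04 (SE 0.23, 95% CI 1.54 to 2.55, adjusted p = 0.0013 from limma), with a set difference of 0.75. Against B6 WT the difference was 1.93 in *Mertk*-/-V2 (limma adjusted p = 0.000745) and that in *Mertk*-/-V3 was -0.12 (adjusted p = 0.756).

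*Zbp1*, *Oas3* and *Oas1a*, list members that answer foreign nucleic acid, were DEGs as well. *Zbp1*, which senses Z-form nucleic acid, had 189, 165 and 295 against 68.0, 71.1 and 43.2 (log2 difference 1.80, SE 0.31, adjusted p = 0.0124 from limma). *Oas3*, which makes the 2'-5' oligoadenylates that activate RNase L, had 189, 203 and 261 against 73.6, 43.6 and 49.4 (log2 difference 1.97, SE 0.41, adjusted p = 0.0238 from limma). Its relative *Oas1a* had 162, 175 and 300 against 68.0, 82.3 and 63.2 (log2 difference 1.52, adjusted p = 0.0324 from limma) and shares 97.6% of its sequence with *Oas1g*. For each of the 3 the lowest *Mertk*-/-V2 library was above the highest *Mertk*-/-V3 library.

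Antiviral effectors and regulators followed. *Rsad2*, the antiviral enzyme viperin, had 1042, 614 and 510 in *Mertk*-/-V2 RPE against 296, 232 and 188 in *Mertk*-/-V3 RPE (log2 difference 1.55, adjusted p = 0.0314 from limma, set difference 1.13). *Ifi44* had 163, 204 and 228 against 64.7, 107 and 69.4 (log2 difference 1.31, adjusted p = 0.0276 from limma), with a set difference of 0.01. Smaller differences that passed on p alone were those of *Rtp4* (log2 difference 0.99, adjusted p = 0.0225 from limma), of *Irf7*, the transcription factor that amplifies interferon production (0.83, adjusted p = 0.0336), and of *Ifit3b* (0.56, adjusted p = 0.0372). The members of the list outside the leading 4 by p are named here after their values were seen.

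*Slfn4*, *Ifi27l2a*, *Apol9a* and *Apol9b* are DEGs outside the list that are known to be induced by interferon, and they are set beside it after their values were seen. *Slfn4*, a Schlafen gene of myeloid cells, had 255, 150 and 214 in *Mertk*-/-V2 RPE, 15.6, 22.4 and 26.2 in *Mertk*-/-V3 RPE and 23.5 to 38.9 in B6 WT (log2 difference 3.21, SE 0.50, adjusted p = 0.00672 from limma, set difference 1.16). *Ifi27l2a*, a small mitochondrial protein gene, had 158, 157 and 397 against 29.0, 48.6 and 43.2 (log2 difference 2.42, SE 0.35, adjusted p = 0.00539 from limma, set difference 0.37). *Apol9a*, an apolipoprotein L gene, had 128, 101 and 150 against 20.1, 32.4 and 21.6 (log2 difference 2.32, SE 0.34, adjusted p = 0.00539 from limma, set difference 0.12). The groups of all 3 stood apart with no overlap. *Apol9b*, which is 98.5% identical to *Apol9a*, had 83.8, 84.0 and 112 against 24.5, 43.6 and 27.8 (log2 difference 1.54, adjusted p = 0.0194 from limma).

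**Figure D4:**
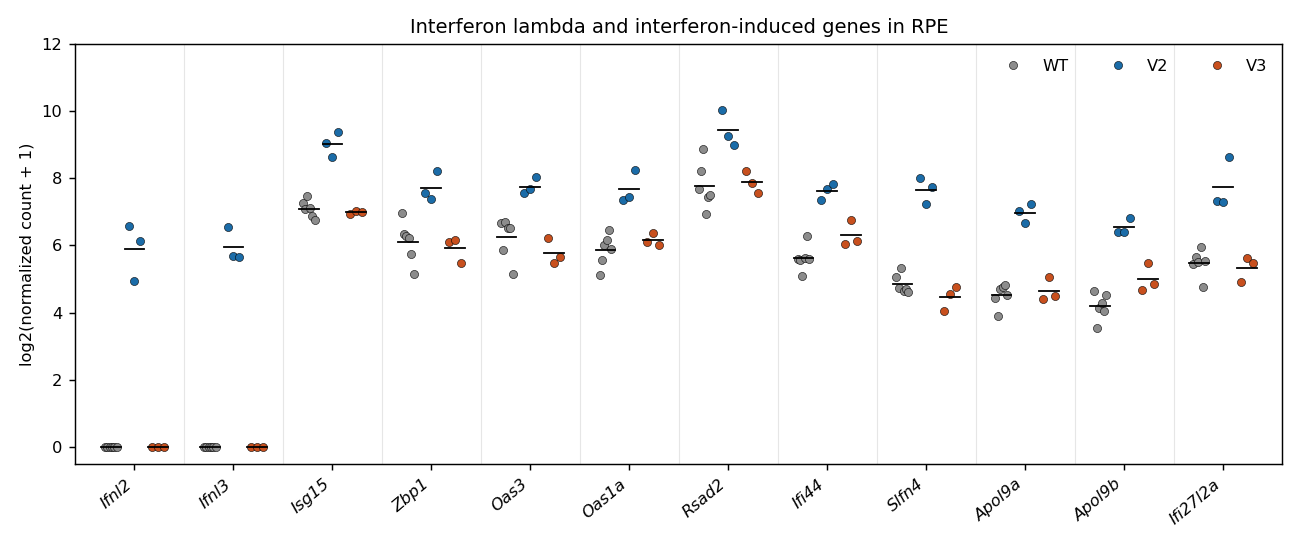
Log2(normalized count + 1) on the y axis for interferon lambda and interferon-induced genes in RPE, with 1 point per library of B6 WT (grey), *Mertk*-/-V2 (blue) and *Mertk*-/-V3 (orange) and a bar at each group's mean. *Ifnl2* and *Ifnl3* are at 0 in *Mertk*-/-V3 and B6 WT and between 29.7 and 95.1 in *Mertk*-/-V2, and *Isg15* is at 398 to 668 in *Mertk*-/-V2 against 122 to 128 in *Mertk*-/-V3.

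Several of the interferon calls depended on single libraries. Leaving out *Mertk*-/-V2 replicate 1, 2 or 3 left 2, 3 and 1 DEGs on the list, and leaving out *Mertk*-/-V3 replicate 1, 2 or 3 left 3, 2 and 4, while the median log2 difference stayed between 0.48 and 0.69. *Isg15*, *Slfn4*, *Ifi27l2a*, *Apol9a*, *Ifnl2* and *Ifnl3* passed without any 1 of the 6 libraries. For *Ifnl2* and *Ifnl3*, with no read in *Mertk*-/-V3, leaving out a *Mertk*-/-V3 library could not change the log2 difference. Their *Mertk*-/-V3 and B6 WT libraries, all at 0, also add no spread to the limma estimate. *Zbp1* lost its call without *Mertk*-/-V2 replicate 3 (adjusted p = 0.0841 from limma), *Oas3* without *Mertk*-/-V2 replicate 1 or 3 or *Mertk*-/-V3 replicate 2 (up to 0.132), and *Apol9b* without *Mertk*-/-V2 replicate 1 or 3 or *Mertk*-/-V3 replicate 1 (up to 0.114). *Oas1a* kept its call without *Mertk*-/-V3 replicate 3 and lost it without each of the other 5 (up to 0.167), and *Rsad2* and *Ifi44* lost theirs without each of the 6 (up to 0.145 for both). *Rtp4*, *Irf7* and *Ifit3b* each missed the adjusted threshold without 4 or 5 of the 6 libraries (up to 0.129, 0.169 and 0.174, all without *Mertk*-/-V2 replicate 3). The list had no DEG in the fit of the 6 libraries alone, with 1 mean per genotype or with array quality weights (lowest adjusted p = 0.0753, 0.0537 and 0.333 from limma, with 16, 15 and 10 genes at an unadjusted p under 0.05), and 6 in edgeR and in DESeq2. Markers of macrophages and microglia, cells that also answer interferon, summed to 12444, 10192 and 11969 in *Mertk*-/-V2 and to 7046, 10941 and 12803 in *Mertk*-/-V3. Of the 17 tested, 1 had an adjusted p under 0.05 and was higher in *Mertk*-/-V2 (2.66% of all genes tested). In bulk tissue fewer cells of a type and less RNA per cell cannot be told apart, and the part of these cells in the interferon difference was not tested.

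Promoter windows of 4 interferon DEGs and of *Apol9a* are shown because the GAAA-repeat element can be read in them, and they were chosen after the matches were seen. The 250 bases before each RefSeq start on GRCm38.p6 were searched on both strands for GAAA NN GAAA (N being any base), overlaps between matches allowed, and for each gene shown 60 bases around the match nearest to the start are printed in the direction of transcription with matches in capitals. All 5 genes are on the minus strand.
Isg15 chr4:156200850-156200909: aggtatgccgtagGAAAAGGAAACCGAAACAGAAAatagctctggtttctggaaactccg
Oas1a chr5:120907526-120907585: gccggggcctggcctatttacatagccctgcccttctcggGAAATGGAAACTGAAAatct
Oas3 chr5:120777700-120777759: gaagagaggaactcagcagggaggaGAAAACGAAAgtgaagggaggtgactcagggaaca
Rsad2 chr12:26456538-26456597: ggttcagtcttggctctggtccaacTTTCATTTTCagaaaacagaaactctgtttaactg
Apol9a chr15:77411099-77411158: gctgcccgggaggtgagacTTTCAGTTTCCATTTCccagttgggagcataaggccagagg
The *Isg15* window held 3 overlapping matches, those of *Oas1a* and *Apol9a* held 2 each, and *Rsad2* and *Apol9a* carried the match on the other strand. Among all 27025 promoters 936 (3.46%) held a match. Of the 6 interferon DEGs 5 are in the promoter table (*Zbp1* is the other) and 4 held a match. Of the interferon list 10 of 20 promoters in the table did, of the 28 DEGs higher in *Mertk*-/-V2 with a promoter 6 did (21.4%), and of the 5 DEGs higher in *Mertk*-/-V3 with a promoter 1 did. The windows of *Ifi44* and *Slfn4* held none, and neither did those of *Ifnl2* and *Ifnl3*. The *Ifnl2* window (chr7:28510361-28510610) reaches into the gene, which starts at 28510455 on the minus strand in the annotation that gave the positions above. The *Ifnl3* window (chr7:28522586-28522835) holds nearly the same bases and ends just before the start of *Ifnl3* in that annotation. The *Ifnl2* window thus does not cover all 250 bases upstream of its annotated start. Neither window can tell whether bases further upstream of the pair hold a match. A match describes the letters of a window and is no measurement of binding.

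Erythroid transcripts were also higher in *Mertk*-/-V2 RPE, and these moved with the replicate set. Of 7 erythroid genes tested, 5 were DEGs higher in *Mertk*-/-V2 (0.17% of all genes tested), and for all 7 the lines did not overlap (12.7% of all genes tested, higher in *Mertk*-/-V2). *Hbb-bs*, an adult beta-globin gene, had 37287, 18258 and 32052 normalized counts in *Mertk*-/-V2 against 2547, 4664 and 4203 in *Mertk*-/-V3 (log2 difference 2.92, adjusted p = 0.00876 from limma, set difference 2.02). *Hbb-bt* had 5227, 2409 and 3751 against 216, 455 and 518 (log2 difference 3.28, adjusted p = 0.00876). The alpha-globin gene *Hba-a1* had 15239, 7182 and 8559 against 1089, 2063 and 1937 (log2 difference 2.58, adjusted p = 0.016). Its copy *Hba-a2* (2.59, adjusted p = 0.0279) and *Alas2*, the erythroid enzyme that opens haem synthesis (2.14, adjusted p = 0.0259), were the other 2 DEGs. The list's sum was 63837, 30574 and 47704 in *Mertk*-/-V2, 4345, 8109 and 7551 in *Mertk*-/-V3 and 7763 to 54630 in B6 WT, and its median difference was 2.58 beside a median set difference of 1.90. *Hbb-bt* passed without any 1 of the 6 libraries, and erythroid DEGs fell to 1 without *Mertk*-/-V2 replicate 3 and to 2 without *Mertk*-/-V2 replicate 1, *Mertk*-/-V3 replicate 1 or *Mertk*-/-V3 replicate 2. No erythroid gene passed in the fit of the 6 libraries alone, with 1 mean per genotype or with array quality weights (7, 6 and 6 at an unadjusted p under 0.05 in limma).

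Of 17 skeletal muscle genes tested, 1 was a DEG higher in *Mertk*-/-V2 (0.17% of all genes tested). *Pvalb*, a calcium buffer of fast muscle fibres, had 1800, 1011 and 4086 in *Mertk*-/-V2 and 380, 233 and 207 in *Mertk*-/-V3 (log2 difference 2.88, adjusted p = 0.0465 from limma). The call stood in 4 of 12 other settings and in 5 of 18 leave-one-out fits, and it was lost without *Mertk*-/-V2 replicate 1 or 3 or any *Mertk*-/-V3 replicate (adjusted p up to 0.22 from limma). B6 WT libraries ranged from 160 to 2162. The median of the list was 1.76 with a set difference of 1.42. For all 16 lens crystallin genes tested the lines did not overlap (12.7% of all genes tested, higher in *Mertk*-/-V2), with sums of 407455, 211333 and 334901 in *Mertk*-/-V2 against 92069, 73264 and 126645 in *Mertk*-/-V3. None of them passed the adjusted threshold in limma (6 at an unadjusted p under 0.05, beside 11.8% of all genes tested higher in *Mertk*-/-V2) or edgeR and 1 did in DESeq2, and their median difference of 1.74 stood beside a set difference of 2.06.

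Of 82 cytosolic ribosomal protein genes tested, 32 had an adjusted p under 0.05, all higher in *Mertk*-/-V2 (2.66% of all genes tested), and the median log2 difference was 0.72 (set difference 0.54, BMDMs -0.12). The ribosomal sum was 347810, 358862 and 583042 in *Mertk*-/-V2 against 282717, 214363 and 259709 in *Mertk*-/-V3, so that *Mertk*-/-V2 replicate 3 stood highest. No ribosomal gene passed without *Mertk*-/-V2 replicate 3 or without *Mertk*-/-V3 replicate 2 (61 and 60 genes at an unadjusted p under 0.05, limma), or in the fit of the 6 libraries alone, with 1 mean per genotype or with array quality weights (64, 66 and 23). The 1 ribosomal DEG was *Rps12*, at 3977, 4612 and 11978 against 2719, 2122 and 2650 (log2 difference 1.28, adjusted p = 0.0381 from limma). Its transcript has 17 near-identical copies, and its call was lost in 7 of 12 other settings and without *Mertk*-/-V2 replicate 3 or *Mertk*-/-V3 replicate 1 or 2 (adjusted p up to 0.175 from limma).

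Of 28 nuclear genes for subunits of oxidative phosphorylation, 16 had an adjusted p under 0.05, all higher in *Mertk*-/-V2 (2.66% of all genes tested), and all 28 had a nominally higher value in *Mertk*-/-V2 (median log2 difference 0.55, set difference 0.29). Their sum was 140605, 135309 and 159944 in *Mertk*-/-V2 and 97980, 95557 and 118436 in *Mertk*-/-V3. *Atp5e*, the epsilon subunit of ATP synthase, was the DEG among them, at 1991, 1781 and 4120 against 809, 829 and 1003 (log2 difference 1.48, adjusted p = 0.0127 from limma). The complex I genes *Ndufa2* and *Ndufa4* had log2 differences of 0.93 (adjusted p = 0.00672 from limma) and 0.96 (adjusted p = 0.0132), and *Uqcrh*, a hinge protein of complex III, one of 0.79 (adjusted p = 0.014). The count of 16 fell to 2 without *Mertk*-/-V2 replicate 3 and to 1, *Ndufa2*, without *Mertk*-/-V3 replicate 2, and in both fits *Atp5e* lost its call (adjusted p up to 0.0829 from limma). None of the 28 passed in the fit of the 6 libraries alone, with 1 mean per genotype or with array quality weights (25, 26 and 16 at an unadjusted p under 0.05 in limma).

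Transcripts of the mitochondrial genome and their copies in the nuclear genome went the other way, in a part of the genes. Of 16 mitochondrially encoded genes tested, 4 had an adjusted p under 0.05 and were higher in *Mertk*-/-V3, and 1, the proline tRNA gene *mt-Tp*, was higher in *Mertk*-/-V2 (log2 difference 0.95, adjusted p = 0.0127 from limma). Over all genes tested the shares at that threshold were 0.881% higher in *Mertk*-/-V3 and 2.66% higher in *Mertk*-/-V2. At an unadjusted p under 0.05, 5 of the 16 were higher in *Mertk*-/-V3, beside 7.56% of all genes tested, and 1 was higher in *Mertk*-/-V2, beside 11.8% (19.3% in either direction). *mt-Atp8*, an ATP synthase subunit, had 280, 363 and 110 in *Mertk*-/-V2 against 855, 948 and 870 in *Mertk*-/-V3 (log2 difference -1.99, adjusted p = 0.0112 from limma, set difference -1.89). *mt-Nd4l*, a complex I subunit, had 221, 229 and 240 against 462, 633 and 737 (log2 difference -1.38, adjusted p = 0.016, set difference -1.71). The next was *mt-Atp6*, with a log2 difference of -1.12 (adjusted p = 0.0173). The most abundant messages did not move with them, since *mt-Co1*, *mt-Cytb* and *mt-Nd1* had log2 differences of 0.02, -0.03 and 0.10 and none passed. The call of *mt-Atp8* was lost without *Mertk*-/-V3 replicate 2 (adjusted p = 0.0687 from limma) and that of *mt-Nd4l* without *Mertk*-/-V2 replicate 1 or 3 or *Mertk*-/-V3 replicate 2 or 3 (up to 0.0931). Mitochondrial reads made up 4.64% to 5.29% of the *Mertk*-/-V2 libraries and 5.06% to 5.73% of the *Mertk*-/-V3 libraries. Without *Mertk*-/-V3 replicate 2 no gene of the list had an adjusted p under 0.05 (6 at an unadjusted p under 0.05 in limma), nor did any in the fit of the 6 libraries alone, with 1 mean per genotype or with array quality weights (7, 3 and 6 at an unadjusted p under 0.05).

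A block of chromosome 1 that resembles mitochondrial DNA held 4 of the DEGs higher in *Mertk*-/-V3. *Gm28438*, 99.7% identical to *mt-Nd3*, had 108, 120 and 109 in *Mertk*-/-V2 against 561, 537 and 355 in *Mertk*-/-V3 (log2 difference -2.07, adjusted p = 0.00481 from limma, set difference -1.03). *Gm28439*, identical to *mt-Nd4* over 876 bases, had 811, 886 and 810 against 1962, 2639 and 2809 (log2 difference -1.55, adjusted p = 0.00283, set difference -1.48). *Gm10222*, identical to *mt-Nd4l* over 294 bases, and *Gm10925*, identical to *mt-Atp6* over 678 bases, had log2 differences of -1.36 (adjusted p = 0.00539) and -1.35 (adjusted p = 0.00586). The lines did not overlap in any of the 4, and *Gm10222* alone fell below the fold threshold in a fit without 1 of the 6 libraries (*Mertk*-/-V3 replicate 3). Reads of these copies cannot be told apart from those of the mitochondrial genes at the matching bases.

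Other genes higher in *Mertk*-/-V3 had a smaller set difference. *AC149090.1*, on an unplaced scaffold (JH584304.1), had 4187, 4767 and 2416 normalized counts in *Mertk*-/-V2 RPE, 7332, 21155 and 18890 in *Mertk*-/-V3 RPE and 1111 to 4200 in B6 WT (log2 difference -1.97, SE 0.38, adjusted p = 0.0169 from limma, set difference 0.47). In BMDMs it had 3529, 3602 and 3560 against 4530, 4820 and 5513 (log2 difference -0.47, adjusted p = 0.0036 from limma), a smaller difference in the same direction. The pseudogene *Pisd-ps1* had 224, 241 and 170 against 313, 792 and 737 in RPE (log2 difference -1.43, adjusted p = 0.0194). *Mertk*-/-V3 replicate 1 was the lowest of its group for both. The choline kinase gene *Chkb* (log2 difference -1.56, adjusted p = 0.0124) overlaps the exons of another gene, *Gm44502*. *AC149090.1* and *Chkb* lost their calls without *Mertk*-/-V2 replicate 3 or *Mertk*-/-V3 replicate 2 (adjusted p up to 0.113 and 0.0841 from limma), and *Pisd-ps1* without *Mertk*-/-V2 replicate 1 or 3 or *Mertk*-/-V3 replicate 2 or 3 (up to 0.122).

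Low-count pseudogenes filled much of the rest. *Gm11460* had 3.22, 5.09 and 0.86 against 19, 13.7 and 18.5 (log2 difference -2.30, adjusted p = 0.0238 from limma, set difference -1.37). *Gm11222* had 1.61, 5.09 and 1.72 against 5.58, 19.95 and 29.3 (log2 difference -2.20, adjusted p = 0.0372), a call that was lost in 9 of 18 leave-one-out fits, among them those without *Mertk*-/-V2 replicate 1 or 3 or *Mertk*-/-V3 replicate 2 or 3 (adjusted p up to 0.171 from limma). *Gm5461* had 8.06, 8.49 and 5.16 against 30.1, 29.9 and 26.2 (log2 difference -1.88, adjusted p = 0.0144, set difference -1.53). Without *Mertk*-/-V2 replicate 3 or *Mertk*-/-V3 replicate 2 the calls of *Gm11460* (adjusted p up to 0.133 from limma) and *Gm5461* (up to 0.0922) were lost as well, the first also without *Mertk*-/-V2 replicate 1 or *Mertk*-/-V3 replicate 1. Values this low rest on few reads in each library.

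*Cfi*, which encodes complement factor I, the protease that inactivates C3b and *C4b*, was higher in *Mertk*-/-V3. It had 30.6, 21.2 and 39.6 normalized counts in *Mertk*-/-V2 RPE, 122, 83.5 and 168 in *Mertk*-/-V3 RPE and 13.6 to 27.0 in B6 WT (log2 difference -1.98, SE 0.34, adjusted p = 0.0127 from limma, set difference -0.52). The lines did not overlap, and the median of *Mertk*-/-V1 was 87.8. Against B6 WT the difference was 2.51 in *Mertk*-/-V3 (limma adjusted p = 0.00135) and 0.53 in *Mertk*-/-V2 (adjusted p = 0.62). Of 15 complement genes tested it was the 1 that passed (adjusted p under 0.05 and higher in *Mertk*-/-V3 in 0.881% of all genes tested), and the median of that list was 0.04. *C4b*, one of its substrates, had 1961, 3007 and 2666 against 4142, 5254 and 6165 without overlap (log2 difference -1.03, 95% CI -1.66 to -0.40, adjusted p = 0.0688 from limma). The extracellular heparan sulfatase gene *Sulf2* had 570, 771 and 703 against 1821, 1132 and 1303 (log2 difference -1.04, adjusted p = 0.016 from limma). *Cfi* passed without any 1 of the 6 libraries, and *Sulf2* missed the threshold without *Mertk*-/-V2 replicate 1 or 3 (adjusted p up to 0.0832).

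*Slc35g1* and *Ide*, both on chromosome 19, were higher in *Mertk*-/-V2. *Slc35g1*, a member of the nucleotide sugar transporter family, had 1688, 2260 and 2290 in *Mertk*-/-V2 RPE and 548, 793 and 1109 in *Mertk*-/-V3 RPE (log2 difference 1.39, adjusted p = 0.022 from limma, set difference 0.13). *Ide*, the insulin-degrading enzyme gene, had 5621, 5186 and 5526 against 2799, 2671 and 3180 (log2 difference 0.92, 95% CI 0.60 to 1.23, adjusted p = 0.00781). *Ide* and *Wdfy1* stand on a list of 8 genes known to vary between C57BL/6J and C57BL/6N mice, of which 5 were tested and these 2 passed on p (3.54% of all genes tested in either direction). *Slc35g1* lost its call without *Mertk*-/-V2 replicate 2 or 3 or *Mertk*-/-V3 replicate 1 or 2 (adjusted p up to 0.114 from limma), and *Ide* missed the threshold without *Mertk*-/-V3 replicate 2 (0.0609). *Crb1*, mutated in C57BL/6N, had 1928, 2224 and 1655 against 1073, 612 and 372 without overlap but did not pass (log2 difference 1.62, 95% CI 0.58 to 2.66, adjusted p = 0.0794 from limma), beside a set difference of -1.60. *Nnt*, which C57BL/6J mice lack in part, was low in both lines, at 12.1, 10.2 and 12 against 15.6, 23.7 and 15.4 (log2 difference -0.61, adjusted p = 0.478).

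In the fit reported here no gene of the visual cycle or rod lists passed the adjusted threshold, but several did in other fits. The 12 visual cycle genes had sums of 924906, 691464 and 689315 in *Mertk*-/-V2 and 312686, 638252 and 845430 in *Mertk*-/-V3, which overlapped. None passed in limma (1 at an unadjusted p under 0.05), edgeR or DESeq2 (1 each), although all 12 were nominally higher in *Mertk*-/-V2 (median 0.41, set difference 0.70). Without *Mertk*-/-V3 replicate 3, 1 visual cycle gene had an adjusted p under 0.05 (8 at an unadjusted p under 0.05) and so did 4 of 15 melanin and melanosome genes, of which none passed in the reported fit (2 at an unadjusted p under 0.05 in limma). With rod genes as a covariate 2 genes of each of these lists passed, and all of these were higher in *Mertk*-/-V2. RPE markers were read at a high level in every library, as the tissue label says. Rod photoreceptor transcripts summed to 285925, 327883 and 208299 in *Mertk*-/-V2 and to 546582, 279105 and 108525 in *Mertk*-/-V3. None of 19 rod genes passed (0 at an unadjusted p under 0.05 in limma, edgeR and DESeq2), and the list's median of 0.15 moved to -0.57 without *Mertk*-/-V3 replicate 3 and to 0.73 without *Mertk*-/-V3 replicate 1. With a library score as a covariate (each library's position on the first principal component of the 12 B6 WT and *Mertk*-/-V1 libraries), an alternative added after the data were seen, 16 of the 19 rod genes had an adjusted p under 0.05 and were higher in *Mertk*-/-V2, with a median of 0.81. With rod genes as a covariate the number of DEGs rose from 79 to 184, and it also rose without *Mertk*-/-V3 replicate 3 and with the library score. The counts of list genes in these fits are not set against the share of all genes tested that passed in the same fit.

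Of 16 genes for outer segment binding and engulfment, which act with MERTK, none had an adjusted p under 0.05 and 2 had an unadjusted p under 0.05 in limma, with a median log2 difference of 0.11. The 21 PPAR target and fatty acid oxidation genes were all nominally higher in *Mertk*-/-V2 (median 0.45), with 11 at an unadjusted p under 0.05 (all genes tested 11.8% in that direction) and none past the adjusted threshold in limma, none in edgeR and 1 in DESeq2. Choroidal endothelial markers summed to 13847, 8136 and 6982 in *Mertk*-/-V2 and to 8393, 12788 and 15197 in *Mertk*-/-V3, which overlapped.

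**Figure D5:**
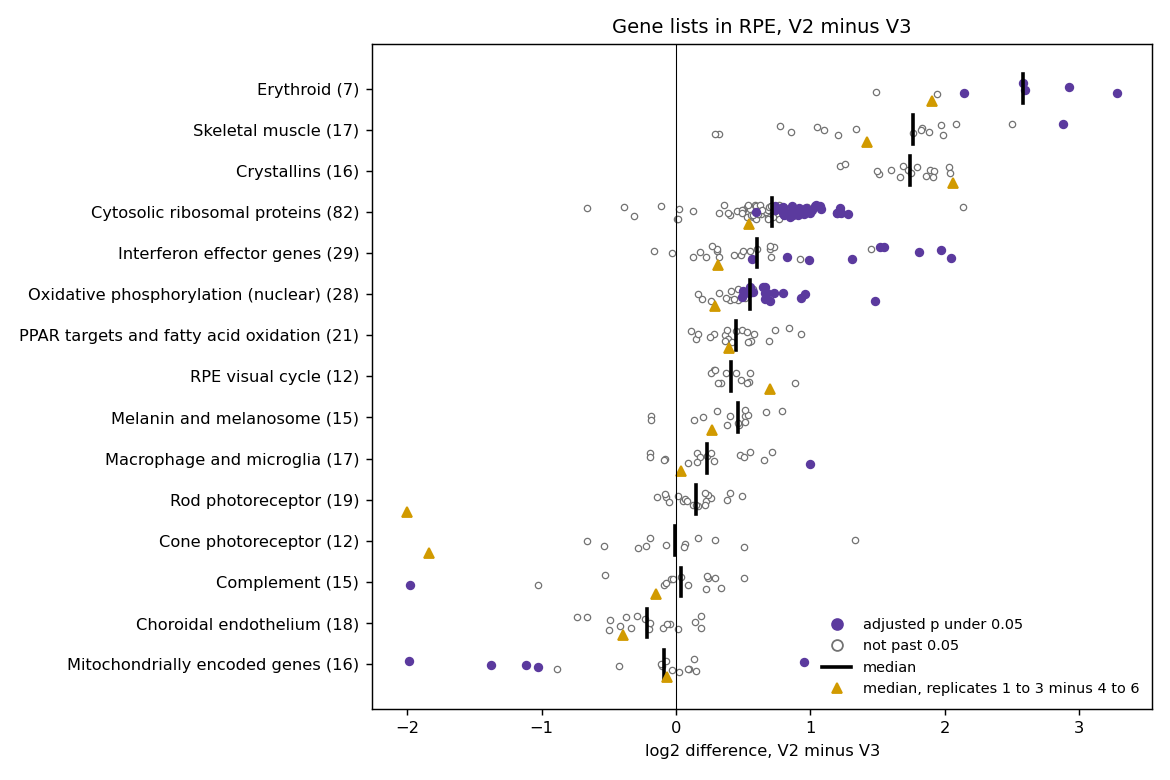
Log2 difference V2 minus V3 in RPE (x axis) for each gene list (y axis), with a point for every gene tested (filled where the adjusted p was under 0.05), a bar at the list's median and a triangle at its median set difference. The erythroid, skeletal muscle and crystallin lists have the highest medians (2.58, 1.76 and 1.74), the interferon list has a median of 0.61, and the rod list a median of 0.15.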

How the data were processed

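RNA was measured by sequencing (paired-end, 150 bases) in 18 RPE libraries and 12 BMDM libraries, of which the 3 *Mertk*-/-V2 and 3 *Mertk*-/-V3 RPE libraries are compared here. Per the labels and the study's methods, the authors trimmed reads with btrim, aligned them to GRCm38 with STAR and normalized gene counts with DESeq2. Tool versions, the read counter and the gene annotation are not given in the sources used here. The deposited values of each tissue are a signal, namely counts divided by a size factor per library, for 55573 genes. In the RPE libraries 100% of values came out as whole reads after division by the worth of 1 read (tolerance 0.01), which gave the depth of each library and the reads for edgeR and DESeq2.

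Values were tested as log2(value + 1) with limma 3.58.1 in R 4.3.3 (lmFit, eBayes with trend), with Benjamini-Hochberg adjustment over 18832 RPE genes whose mean reached 10. The model had a mean for *Mertk*-/-V2, for *Mertk*-/-V3, and for replicates 1 to 3 and 4 to 6 of B6 WT and of *Mertk*-/-V1, which left 12 residual degrees of freedom. BMDMs had a model of their own. Fold differences on this scale are understated for low values. Labels call the samples biological replicates. The fold threshold is that of the study's methods. On simulated reads for this comparison limma recovered 161 of 200 changed genes and called 6 unchanged ones, out of 18832. The simulated libraries were independent, held no difference between replicate sets, and had changes of a single size above the fold threshold. These counts therefore do not give the error rate among the 79 DEGs.

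Genes were named by rules (the TAM receptors, the largest differences in each direction, those with little set difference, those shared with BMDMs, and up to 4 genes by p from each list). The other members of the interferon, mitochondrial, ribosomal, oxidative phosphorylation and complement lists were named after their values were seen. So were *Slc35g1*, *Apol9b*, *Pisd-ps1*, *Chkb*, *Gm28439*, *Gm10222* and *Gm10925*. The genes, the 40 lists and the comparison were chosen with earlier results of these data known. A withheld item is not reported here. Near-identical copies were sought with blastn 2.17.0 in GENCODE M21 transcripts (at least 97% identity over at least 200 bases), and overlaps with bedtools 2.31.1. Ratios with counting intervals and floors cover counting error only. Other settings tried were 5 as pseudocount, all genes without a filter, fits of fewer samples or cells, quantile normalization, array quality weights, covariates, edgeR 4.0.16, DESeq2 1.42.0, a replicate block and leaving out each library.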

Additional observations from a re-analysis of the deposited data

Results flagged for a closer look

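Reads of both interferon lambda genes in 1 *Mertk*-/-V1 RPE library stood apart from their group. *Ifnl2* was at 12.8 normalized counts in *Mertk*-/-V1 replicate 1 with the next library at 0.948, and *Ifnl3* was at 23.3 in the same library with the others at 0. *Slfn4* was at 276.6 in *Mertk*-/-V1 replicate 3 with the next at 77.0, so that a library of another line reached the level of *Mertk*-/-V2. *Ifi44* was at 226 in *Mertk*-/-V1 replicate 2 (next 143) and at 77.3 in B6 WT replicate 5 (next 48.1). *Cfi* was at 166 in *Mertk*-/-V1 replicate 6 (next 93.0). *Axl* was lowest in *Mertk*-/-V1 replicate 3, at 1444, with the next at 1923. The pseudogenes *Gm11460* and *Gm11222* had 1 high library each, at 23.6 in *Mertk*-/-V1 replicate 6 (next 10.9) and at 18.1 in *Mertk*-/-V1 replicate 4 (next 9.72). These are 9 of 122 groups of 6 libraries examined for a gap between the outermost library and the rest, and about 1 in 20 is found so by chance.

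For *mt-Nd4l*, *Rps12*, *Pcna* and *Hist1h2bc* all libraries of the lines stood apart in opposite directions in the 2 tissues. The log2 difference V2 minus V3 of *mt-Nd4l* was -1.38 in RPE and 0.57 in BMDMs, and that of *Rps12* was 1.28 in RPE and -0.18 in BMDMs. For *Pcna* the values were 0.49 and -0.13, and for *Hist1h2bc* 0.67 and -0.32. Only 62 of the genes named here were examined for this, and the share of all genes that stand apart in opposite directions was not counted. In RPE alone the lines did not overlap for 23.4% of all genes tested. The difference between tissues was not tested.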

How the results depend on the processing

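The 79 RPE DEGs became 5 in a fit of only the 6 libraries compared, 10 with 1 mean per genotype, 7 with array quality weights (whose estimation stopped before it converged), 184 with rod genes as a covariate, 174 in DESeq2 and 667 without the fold threshold. They were between 22 and 129 in the fits that left out 1 library each. The other settings gave 61 with a pseudocount of 5, 87 without the filter, 67 with quantile normalization, 55 with Y-linked genes as a covariate and 89 in edgeR. A library score as a covariate, added after the data were seen, gave 96, with 67 of the 79 among them. The 33 BMDM DEGs became 424 without the fold threshold, and 21 (without *Mertk*-/-V3 replicate 3) to 39 when 1 library was left out. The 1718 genes of the set difference became 7896 without the fold threshold. Of 62 genes named with a test, 41 were DEGs. Reversed signs were seen for *Tyro3* (-0.047 with the library score, -0.070 without *Mertk*-/-V2 replicate 1, -0.10 without *Mertk*-/-V3 replicate 1, and -0.10 to 0.27 over the leave-one-out fits) and *Axl* (-0.0076 without *Mertk*-/-V3 replicate 1, and up to 0.24 without *Mertk*-/-V3 replicate 3), neither of which was called. Why these counts moved was not tested. *Mertk*-/-V2 and *Mertk*-/-V3 RPE libraries differ in depth, and genes near 0 rest on few reads. Libraries that share a replicate number did not deviate together (correlations of -0.235, 0.165 and 0.176 in RPE and of -0.097, -0.008 and -0.089 in BMDMs), so the number does not pair them. With a replicate block there were 79 DEGs in RPE, 65 of them shared with the unblocked fit, and 30 in BMDMs.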

Other observations

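Most of the remaining lists held no gene or 1 gene past an adjusted p under 0.05 between *Mertk*-/-V2 and *Mertk*-/-V3 RPE (3.54% of all genes tested in either direction). The single genes were all higher in *Mertk*-/-V2, apart from *Sulf2* on the matrix list. *Lyz2*, the lysozyme of myeloid cells, had 988, 837 and 1634 normalized counts in *Mertk*-/-V2 against 431, 605 and 656 in *Mertk*-/-V3 (log2 difference 0.99, adjusted p = 0.0495 from limma, set difference 0.38). *Hspe1*, a mitochondrial chaperonin, had 1133, 1087 and 1519 against 828, 710 and 784 (log2 difference 0.67, adjusted p = 0.0225). The histone gene *Hist1h2bc* had 2449, 2034 and 2271 against 1206, 1380 and 1703 (log2 difference 0.67, adjusted p = 0.0164). In all 3 genes the lines did not overlap. The MHC class I gene *H2-T22* (log2 difference 0.59, adjusted p = 0.0449), *Idi1* of sterol synthesis (0.57, adjusted p = 0.0317) and *Pcna*, the sliding clamp of DNA replication (0.49, adjusted p = 0.0444), differed by less. Each of these 6 genes missed the threshold without 3 to 5 of the 6 libraries compared, *Mertk*-/-V2 replicate 3 and *Mertk*-/-V3 replicate 2 among them (adjusted p up to 0.239 for *Lyz2*).

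Mural cell and fibroblast genes had a positive median (0.37, with 4 of 17 at an unadjusted p under 0.05, beside 11.8% of all genes tested higher in *Mertk*-/-V2) beside a set difference of -0.13. The NRF2 antioxidant list had a median of 0.43 with 7 of 19 genes higher in *Mertk*-/-V2 at an unadjusted p under 0.05 (11.8% of all genes tested), equal to its set difference of 0.43. For cone genes and inner retina neuron genes the medians were -0.0087 and -0.23, beside set differences of -1.84 and -2.44, with 0 of 12 and 0 of 16 genes at an unadjusted p under 0.05.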
